A study of Rattus norvegicus with 9 samples.

Results

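The data describe 10 genes of the Notch pathway among the 19608 genes of an RNA sequencing table from HEI-OC1 cells. They were taken by symbol and are the receptors Notch1, Notch2 and Notch3, the ligands Jag1 and Jag2, the sugar transferase Lfng and the transcriptional repressors Hes1, Hey1, Hey2 and Heyl. HEI-OC1 is an immortalized auditory line established from the cochlear sensory epithelium and serves in drug toxicity work as a stand-in for hair cells. Its gene expression was compared after cisplatin, a platinum drug that crosslinks DNA, after neomycin, an aminoglycoside antibiotic, and after phosphate-buffered saline (PBS), with 3 libraries each. Both drugs are ototoxic. Each exposure lasted 24 h, the sources used here give no doses, and no other treatment or genetic change is labelled. All libraries came from this single line, and the labels do not say whether the 3 libraries of a group were separate cultures, so the p-values speak only to the spread among these libraries.

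In Notch signalling a Delta or Jagged ligand on one cell binds a Notch receptor on its neighbour. The receptor is then cut by ADAM10 and by gamma-secretase, and its freed intracellular domain enters the nucleus, joins the DNA-binding protein RBPJ and a Mastermind coactivator, and switches on repressors of the HES and HEY families. In the developing cochlea hair cells present ligands, and Notch activity in the cells around them holds those cells in the supporting cell fate. Jag1 and Lfng are known as genes of the prosensory region and supporting cells.

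The values are FPKM, fragment counts scaled to gene length and library size. Whole reads were recovered from the steps of the values, and the scaling totals lay between 27516629 and 40221089 reads per library. Markers of cochlear supporting cells were mostly very low. Of 12 such markers in the table, 7 stayed under 0.1 FPKM in every group mean, among them the gap junction genes Gjb2 and Gjb6 and the stem cell marker Lgr5, and 4 reached 1 FPKM in PBS. Of 10 hair cell markers 8 stayed under 0.1 FPKM and only Myo6 reached 1 FPKM in PBS, whereas 8 of 10 fibroblast markers did. The genes below are therefore described as Notch pathway genes of this line, not as genes of supporting cells. The table carries rat gene identifiers while the line is of mouse origin. A low marker value may therefore also reflect how well its reads were placed. The summed fibroblast markers ran from 9726 to 10150 FPKM in PBS, from 8743 to 8744 FPKM in neomycin and from 3872 to 4152 FPKM in cisplatin. Col1a1, Col1a2, Sparc and Vim made up most of this sum. With neomycin Col1a1, Col1a2 and Vim were lower, and Sparc and Col3a1 differed little. Pdgfra instead rose with neomycin from 22.3 ± 1.03 to 26.5 ± 0.86 FPKM, Pdgfrb from 52.1 ± 2.67 to 63.0 ± 2.18 FPKM, and Lum was also higher. Summed smooth muscle and pericyte markers were 230 to 270 FPKM in PBS, 295 to 326 in neomycin and 420 to 457 in cisplatin. Tagln made up most of it, rising with cisplatin from 237 ± 20.5 to 427 ± 18.7 FPKM. Acta2 and Cnn1 also rose, but Myh11 did not (1.42 ± 0.15 to 1.37 ± 0.20 FPKM). In the same order the 2 leukocyte markers summed to 0.152 to 0.287, 0.213 to 0.276 and 1.58 to 1.94 FPKM. The cisplatin increase came almost wholly from Cd68 (0.204 ± 0.058 to 1.68 ± 0.20 FPKM), and Csf1r stayed under 0.1 FPKM. Hair cell markers summed to 14.3 to 16.1 FPKM in PBS, 16.1 to 18.3 FPKM in neomycin and 7.90 to 9.04 FPKM in cisplatin. Most of this sum was Myo6, at 14.5 ± 0.95, 14.9 ± 1.06 and 7.16 ± 0.45 FPKM in the same order. Myo7a went another way, from 0.883 ± 0.043 FPKM in PBS to 2.54 ± 0.11 FPKM in neomycin and 1.33 ± 0.12 FPKM in cisplatin. Endothelial markers summed to 2.16 to 2.54, 2.93 to 3.13 and 0.448 to 0.699 FPKM. This sum was mostly Tek, which fell with cisplatin from 2.15 ± 0.24 to 0.408 ± 0.13 FPKM. Vwf was also lower, whereas the scarce Pecam1 was higher (0.0101 ± 0.0035 to 0.0440 ± 0.024 FPKM). Schwann cell markers summed to 7.07 to 8.75, 7.13 to 7.73 and 5.37 to 5.61 FPKM, mostly through Pmp22. Supporting cell markers summed to 136 to 139 FPKM in PBS, 130 to 137 FPKM in neomycin and 152 to 161 FPKM in cisplatin, mostly through Cdkn1b, a general cell cycle inhibitor, at 108 ± 0.77 FPKM in PBS. Within that list the markers went different ways with neomycin, S100a1 from 10.53 ± 0.41 to 31.0 ± 1.54 FPKM, Fgfr3 from 0.812 ± 0.079 to 1.60 ± 0.098 FPKM, Slc1a3 from 15.7 ± 0.60 to 9.09 ± 0.48 FPKM and Cdkn1b to 89.4 ± 2.28 FPKM. Their part in the changes below was not tested, and in bulk RNA fewer cells of a type and less RNA per cell cannot be told apart.

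With cisplatin, Hes1 rose to 2.00 times and Lfng to 2.06 times the PBS mean, and Notch2, Jag1 and Notch1 fell. With neomycin, Jag1 fell to 0.436 times the PBS mean, Hes1, Hey1 and Notch2 fell by smaller amounts, and Notch1 rose. Members were tested where their mean over the 9 libraries was at least 1 FPKM, which kept 7 of the 10. Hey2 (mean 1.01 FPKM) and Hey1 (1.03 FPKM) lay just inside this limit and Jag2 (0.609 FPKM) just outside it, with Notch3 and Heyl far below. Of the 7 tested members 5 differed between cisplatin and PBS (limma, adjusted p under 0.05), 2 higher and 3 lower. Among all 10532 tested genes 78.0% differed, 47.5% higher and 30.5% lower. Between neomycin and PBS 5 of the 7 differed, 1 higher and 4 lower, against 66.2% of all genes, 37.5% higher and 28.7% lower. Cisplatin and neomycin differed for 5 of the 7, 3 higher in cisplatin and 2 lower, against 81.6% of all genes, 45.0% higher and 36.6% lower. The values of the 2 groups did not overlap for 5 of the 7 members in each comparison. Over all tested genes that held for 80.1% with cisplatin against PBS, 67.4% with neomycin against PBS and 83.3% with cisplatin against neomycin. These shares are close to the background, so the number of members called is not a result about them, and the description rests on which gene moved and how far. The median size of change over the 7 members was 0.57 on the log2 scale for cisplatin, against 0.36 over all tested genes, and 0.32 for neomycin, against 0.23. With 7 members each median is the value of a single gene, Jag1 for cisplatin and Hey1 for neomycin. The difference from all genes was not tested.

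**Figure D1:**
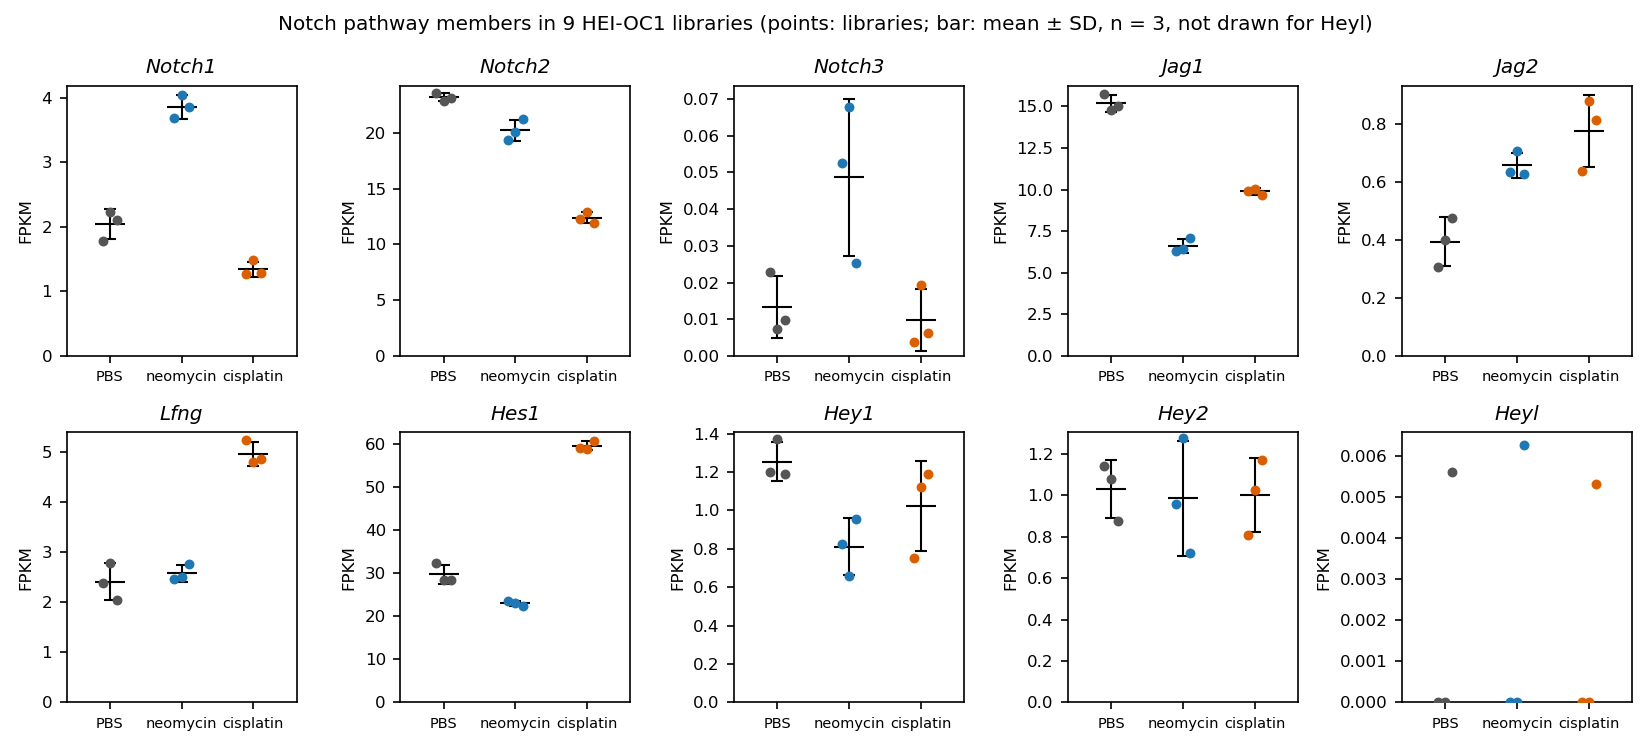
FPKM of each of the 10 genes (y axis, from 0, its own scale in each panel) in the PBS, neomycin and cisplatin libraries (x axis). Points are libraries and bars are the mean ± SD of 3, not drawn for Heyl. Hes1 and Lfng were highest in cisplatin, Notch1 in neomycin, and Notch2 and Jag1 in PBS.

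Notch2 was the main receptor of the line. It stood at 23.6, 22.9 and 23.1 FPKM in the PBS libraries, 19.4, 20.1 and 21.3 FPKM in neomycin and 12.3, 12.9 and 12.0 FPKM in cisplatin. The 3 groups did not overlap, with PBS highest and cisplatin lowest. Notch2 (Entrez gene 29492) fell from 23.2 ± 0.37 to 12.4 ± 0.49 FPKM with cisplatin (mean ± SD, n = 3), or by 0.86 ± 0.05 (SE) on the log2 scale (limma, adjusted p = 1.7e-09). All limma fold changes here were taken on log2(FPKM + 1), where the change of a low gene appears smaller than it is. With neomycin Notch2 fell by 0.19 ± 0.05 on the log2 scale (adjusted p = 0.0043), to 20.2 ± 0.95 FPKM. The 2 drugs differed by -0.67 ± 0.05 (adjusted p = 1.7e-08).

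Notch1, the receptor best known from lateral inhibition between hair cells and supporting cells, moved in opposite directions with the 2 drugs. Its level was 1.79, 2.23 and 2.10 FPKM in PBS, 3.68, 4.04 and 3.85 FPKM in neomycin and 1.26, 1.48 and 1.29 FPKM in cisplatin. Every neomycin library lay above every PBS library and every cisplatin library lay below. Notch1 (Entrez gene 25496) rose from 2.04 ± 0.23 to 3.86 ± 0.18 FPKM with neomycin, 1.89 times the PBS mean (log2 fold change 0.68 ± 0.07, limma adjusted p = 2.8e-06), which ranked 507 among the rises of the 10532 tested genes. With cisplatin it fell to 1.34 ± 0.12 FPKM, 0.658 times the PBS mean (log2 fold change -0.37 ± 0.07, adjusted p = 3.6e-04). Because Notch1 is low, its fold changes were larger on recovered reads without the added 1 FPKM, at 0.92 and -0.60 (voom). Cisplatin and neomycin differed by -1.05 ± 0.07 (adjusted p = 8.4e-09).

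Notch3 was at the edge of detection. It had 6, 2 and 3 reads in the PBS libraries, 12, 15 and 7 in neomycin and 1, 6 and 2 in cisplatin, or 54 reads in all. Its neomycin values of 0.0254 to 0.0678 FPKM lay above the PBS values of 0.00724 to 0.0230 FPKM. It was too low for the main test. Without the filter on low values neomycin and PBS differed (limma adjusted p = 0.036), and on recovered reads the log2 fold change was 1.76 ± 0.65 (voom adjusted p = 0.026), an estimate from few reads.

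Within a library, the share of each receptor does not depend on how the library was scaled. Notch2 held 91.9 ± 0.92% (SD, n = 3) of the summed FPKM of the 3 receptors in PBS, 83.8 ± 0.78% in neomycin and 90.2 ± 0.52% in cisplatin. Notch1 held 8.08 ± 0.95%, 16.0 ± 0.69% and 9.77 ± 0.47%. In neomycin Notch1 therefore took a larger share than in PBS, while the summed receptor level stayed near it, at 24.1 ± 1.01 against 25.3 ± 0.16 FPKM. In cisplatin the sum was 13.7 ± 0.60 FPKM, with Notch1 libraries at 9.33 to 10.3% of it and PBS libraries at 7.03 to 8.88%. The table carries rat gene identifiers while the line is of mouse origin, so a level compared between genes may also reflect how well reads of each gene were placed.

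Jag1, a ligand of the Notch receptors, fell with both drugs and more with neomycin. It measured 15.8, 14.8 and 15.0 FPKM in PBS, 6.33, 6.41 and 7.10 FPKM in neomycin and 9.94, 10.1 and 9.67 FPKM in cisplatin. The groups were far apart and none overlapped. Jag1 (Entrez gene 29146) fell from 15.2 ± 0.52 to 6.61 ± 0.42 FPKM with neomycin, 0.436 times the PBS mean (log2 fold change -1.09 ± 0.06, limma adjusted p = 2.8e-09). It ranked 47 among the falls of the 10532 tested genes. With cisplatin the fall was smaller, by 0.57 ± 0.06 on the log2 scale (adjusted p = 3.5e-07), to 9.89 ± 0.20 FPKM. The drugs differed by 0.52 ± 0.06 (adjusted p = 7.7e-07). Both drugs were compared with the same PBS libraries, so their values are given side by side and only the direct contrast compares them.

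Jag2, the Jagged ligand of hair cells in the developing cochlea, was scarce. Its level was 0.305, 0.401 and 0.476 FPKM in PBS, 0.634, 0.708 and 0.628 FPKM in neomycin and 0.638, 0.878 and 0.813 FPKM in cisplatin. Both drug groups lay above PBS and overlapped each other. Each library held between 54 and 185 Jag2 reads. It was under the filter of the main test. On recovered reads the log2 fold change was 0.98 ± 0.21 for cisplatin (voom adjusted p = 1.5e-04) and 0.73 ± 0.22 for neomycin (0.0068), and without the filter limma called it as well (adjusted p = 0.0017 and 0.013). Jag2 amounted to 2.61 ± 0.62% of the Jag1 level in PBS, 9.97 ± 1.11% in neomycin and 7.85 ± 1.25% in cisplatin. These ratios also carry the fall of Jag1, to 0.436 times its PBS mean in neomycin and 0.652 times in cisplatin. Jag2 alone was at 1.67 and 1.97 times its own PBS mean.

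Lfng adds a sugar to O-fucose on the EGF repeats of Notch, which alters the response of the receptor to its ligands. It stood at 2.39, 2.79 and 2.05 FPKM in PBS, 2.47, 2.50 and 2.78 FPKM in neomycin and 5.23, 4.80 and 4.86 FPKM in cisplatin. The cisplatin libraries were all above the others, and neomycin overlapped PBS. Lfng (Entrez gene 170905) rose from 2.41 ± 0.37 to 4.97 ± 0.24 FPKM with cisplatin, 2.06 times the PBS mean (log2 fold change 0.81 ± 0.08, limma adjusted p = 3.8e-07). The neomycin change of 0.07 ± 0.08 was not called (adjusted p = 0.42), and the drugs differed by 0.74 ± 0.08 (adjusted p = 8.4e-07).

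Hes1, a repressor that Notch activity switches on in many tissues, was the most abundant of the 10 genes in all 3 groups. It read 32.4, 28.4 and 28.5 FPKM in PBS, 23.6, 23.2 and 22.5 FPKM in neomycin and 59.1, 59.0 and 60.8 FPKM in cisplatin. No groups overlapped, and cisplatin and neomycin lay on opposite sides of PBS. Hes1 (Entrez gene 29577) rose from 29.8 ± 2.28 to 59.6 ± 1.03 FPKM with cisplatin (log2 fold change 0.98 ± 0.05, limma adjusted p = 6.4e-10). With neomycin it fell to 23.1 ± 0.55 FPKM (log2 fold change -0.35 ± 0.05, adjusted p = 4.7e-05). The direct contrast of cisplatin against neomycin was 1.33 ± 0.05 (adjusted p = 2.2e-11). Hes1 and Notch1 were called in opposite directions in the 2 drugs, as were 25.2% of all tested genes.

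Hey1 and Hey2, related repressors known from the heart, vessels and cochlea, were both near 1 FPKM. Hey1 measured 1.20, 1.37 and 1.19 FPKM in PBS, 0.823, 0.659 and 0.952 FPKM in neomycin and 0.754, 1.12 and 1.19 FPKM in cisplatin. Neomycin lay below PBS without overlap, and cisplatin overlapped both. Hey1 (Entrez gene 155437) fell by 0.32 ± 0.09 on the log2 scale with neomycin (limma adjusted p = 0.009), or by 0.62 ± 0.23 on recovered reads (voom adjusted p = 0.030). Its cisplatin change of -0.16 ± 0.09 was not called (adjusted p = 0.13), but it was with trimmed mean of M values (TMM) scaling (-0.23, adjusted p = 0.039). The contrast of cisplatin against neomycin, 0.16 ± 0.09 (adjusted p = 0.14), was called with quantile normalization (0.34, adjusted p = 0.004) and without cisplatin replicate 1 (0.26, adjusted p = 0.021), the library with the lowest Hey1 value of its group.

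Hey2 had 1.14, 1.08 and 0.875 FPKM in PBS, 0.960, 1.28 and 0.724 FPKM in neomycin and 0.811, 1.02 and 1.17 FPKM in cisplatin. All 3 groups overlapped. The log2 fold changes were -0.02 ± 0.10 for cisplatin (limma adjusted p = 0.84) and -0.04 ± 0.10 for neomycin (adjusted p = 0.75). Heyl, the third HEY gene, had 1 read in the replicate 3 library of each group and 0 in the others, where 3 reads would be 0.0160 to 0.0234 FPKM. No difference in Heyl was detectable at this depth.

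**Figure D2:**
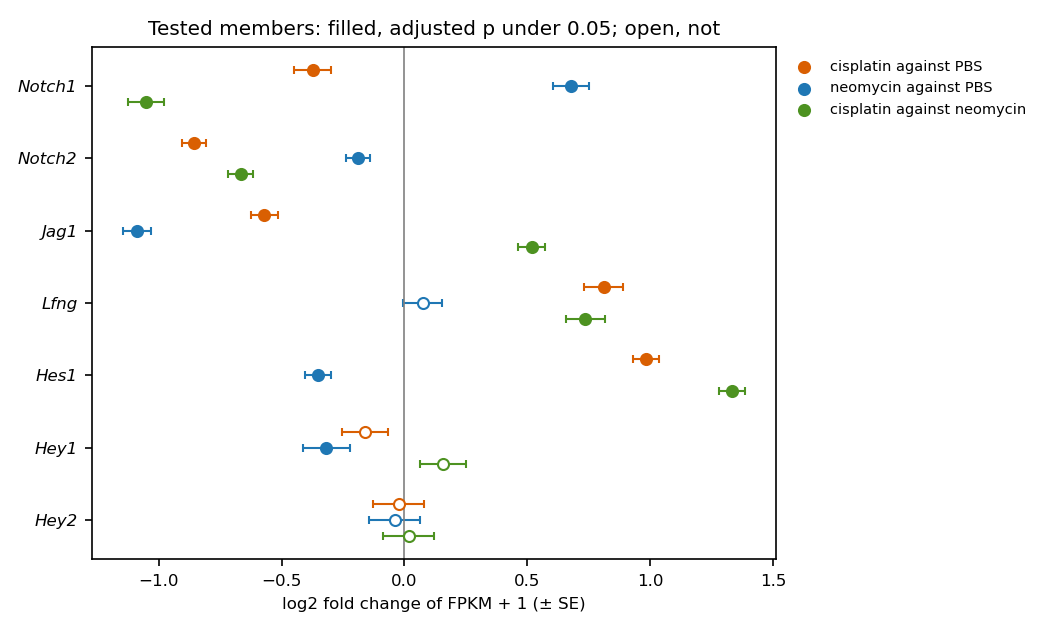
Log2 fold change of FPKM + 1 (x axis, with SE) of the 7 tested members (y axis) for cisplatin against PBS, neomycin against PBS and cisplatin against neomycin. Filled points passed an adjusted p of 0.05 and open points did not. Hes1 and Notch1 lie on opposite sides of 0 for the 2 drugs, Jag1 and Notch2 on the lower side for both.

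Hes1 is a classic target of RBPJ, so the bases just before the start sites of the members were searched for its core motif TGGGAA on both strands. RefSeq promoters of the rat assembly GRCr8 were found for 9 of the 10 members. In the 250 bases before the start site 3 of the 9, Hes1, Hey2 and Lfng, held the motif, each in 2 places, against 21.6% of 27457 promoters with at least 1 match and 2.61% with at least 2. These 3 stretches are shown because they hold the motif. Hes1 and Lfng rose with cisplatin and Hey2 was not called, and a part of RBPJ in this was not tested. Capitals mark TGGGAA or its reverse complement TTCCCA, read 5′ to 3′ along each gene, at chr11:84213046-84213295 (minus strand) for Hes1, chr12:19152919-19153168 (minus strand) for Lfng and chr1:28640850-28641099 (plus strand) for Hey2.
Hes1: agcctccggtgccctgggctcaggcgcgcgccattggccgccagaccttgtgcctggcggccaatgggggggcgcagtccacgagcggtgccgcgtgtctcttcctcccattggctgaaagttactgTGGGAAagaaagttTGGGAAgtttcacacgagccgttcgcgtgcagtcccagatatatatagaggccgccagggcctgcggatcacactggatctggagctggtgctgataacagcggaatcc
Lfng: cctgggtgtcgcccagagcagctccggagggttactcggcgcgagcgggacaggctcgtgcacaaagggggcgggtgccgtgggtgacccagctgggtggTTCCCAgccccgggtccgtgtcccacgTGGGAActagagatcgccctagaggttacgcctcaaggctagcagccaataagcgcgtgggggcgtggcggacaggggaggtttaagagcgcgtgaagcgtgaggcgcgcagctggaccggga
Hey2: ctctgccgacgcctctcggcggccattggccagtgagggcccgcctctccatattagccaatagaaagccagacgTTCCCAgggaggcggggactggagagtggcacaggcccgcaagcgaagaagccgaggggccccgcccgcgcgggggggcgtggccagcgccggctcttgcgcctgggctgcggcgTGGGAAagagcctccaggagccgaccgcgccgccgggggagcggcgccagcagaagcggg
In Hes1 both matches lie on the strand of the gene, starting 123 and 109 bases before the start site. In Lfng and Hey2 the matches face opposite ways. A match is a description of the rat reference and not a measured binding site.

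Relative to Notch2 in the same library, a measure free of library scaling, Hes1 was 128 ± 7.83% (SD, n = 3) in PBS, 114 ± 8.01% in neomycin and 482 ± 25.9% in cisplatin. Lfng stood at 10.4 ± 1.67%, 12.8 ± 0.30% and 40.2 ± 2.79% of Notch2. In cisplatin these ratios also carry the fall of Notch2 itself, to 0.533 times its PBS mean. Hes1 and Lfng alone were at 2.00 and 2.06 times theirs. Jag1 was at 65.4 ± 1.16% of Notch2 in PBS, 32.7 ± 0.76% in neomycin and 80.0 ± 1.77% in cisplatin. So Jag1, which fell in cisplatin, fell less than Notch2 did. The order of levels was Hes1, Notch2 and Jag1 in every group. Next came Lfng and Notch1, which overlapped in PBS (2.05 to 2.79 against 1.79 to 2.23 FPKM), with Notch1 above Lfng in neomycin and Lfng above Notch1 in cisplatin.

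**Figure D3:**
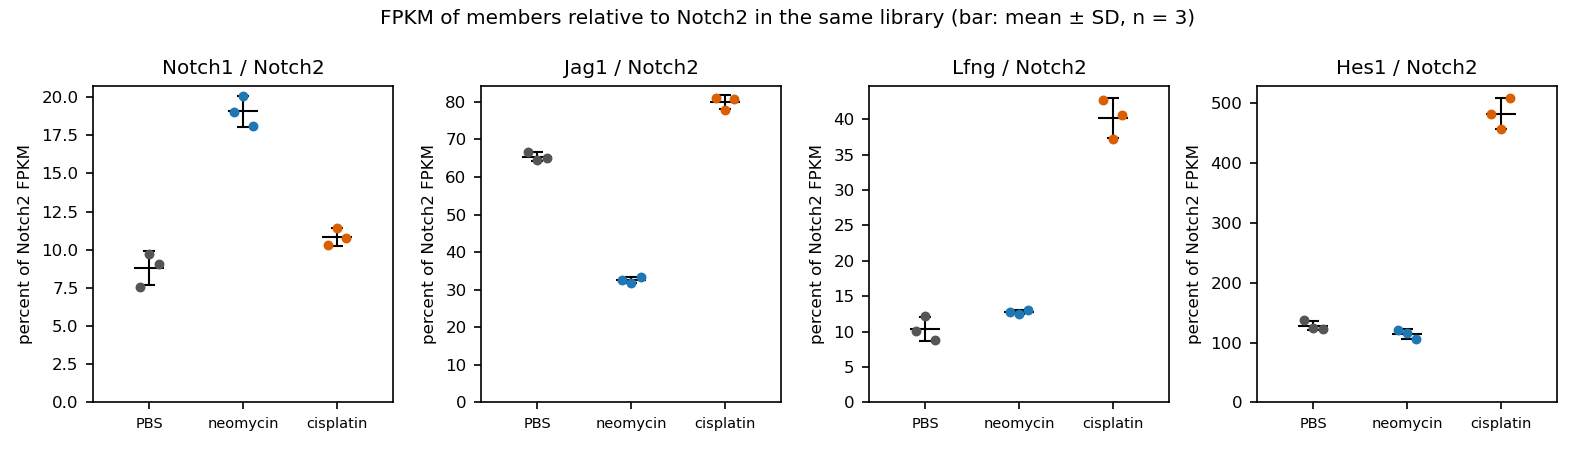
FPKM of Notch1, Jag1, Lfng and Hes1 as percent of the Notch2 FPKM of the same library (y axis, from 0) in PBS, neomycin and cisplatin (x axis). Points are libraries and bars the mean ± SD of 3. Hes1 and Lfng stand apart in cisplatin, Notch1 is highest and Jag1 lowest in neomycin. Notch2 itself was lowest in cisplatin, which raises every ratio there.

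The rest of the pathway was read from 70 further genes in 9 lists, of which 66 were in the table and 51 passed the filter. With cisplatin 17 of the 51 rose and 27 fell (limma, adjusted p under 0.05), while 47.5% of all tested genes rose and 30.5% fell. Their median log2 fold change was -0.19, against 0.12 over all tested genes. With neomycin 28 rose and 7 fell, beside 37.5% and 28.7% of all genes, with a median of 0.15 against 0.04. The direct contrast had 10 higher and 29 lower in cisplatin, beside 45.0% and 36.6% of all genes, with a median of -0.20 against 0.07. TMM scaling lowered the cisplatin changes of all genes by a median of 0.11 and moved the share of higher genes among all calls from 60.9% to 50.8%. The pathway counts were then 15 higher and 29 lower for cisplatin and 22 higher and 8 lower for neomycin. The lists were not tested as sets, and their counts below are to be read beside these shares of all genes.

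Other ligands and receptors were scarce. The Delta ligands Dll1 and Dll3 were at 0.0904 ± 0.037 and 0.164 ± 0.039 FPKM in PBS. They stood at 0.186 ± 0.057 and 0.0811 ± 0.044 FPKM in neomycin and at 0.313 ± 0.050 and 0.481 ± 0.069 FPKM in cisplatin. Dll4, also a Delta ligand, was at 0.0248 ± 0.015 FPKM in PBS, 0 FPKM in neomycin and 0.0102 ± 0.0041 FPKM in cisplatin. All of these were too low for the main test. Notch4, known from vessels, stood at 0.175 ± 0.040 FPKM in PBS, 0.0732 ± 0.078 FPKM in neomycin and 0.176 ± 0.033 FPKM in cisplatin. Dner, a neuronal ligand-like protein and the only tested gene of its list, fell from 1.34 ± 0.16 to 0.414 ± 0.037 FPKM with cisplatin (log2 fold change -0.73 ± 0.07, limma adjusted p = 4.8e-07). Its neomycin change of 0.14 ± 0.07 was not called (adjusted p = 0.096).

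Of the 5 tested enzymes that add sugars to Notch, 5 rose with neomycin (4 with TMM scaling), and with cisplatin 3 rose and 1 fell (3 and 2 with quantile normalization). Eogt, which adds a GlcNAc sugar to EGF repeats, rose by 0.63 ± 0.07 with cisplatin and 0.62 ± 0.07 with neomycin, and the xylose transferase Gxylt1 by 0.62 ± 0.09 and 0.57 ± 0.09. Pofut1 adds the O-fucose that Lfng extends. It fell by 0.51 ± 0.06 with cisplatin and rose by 0.19 ± 0.06 with neomycin.

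Of 6 tested endocytosis genes 1 rose and 5 fell with cisplatin, and 4 rose and 1 fell with neomycin. The ubiquitin ligases Mib1 and Neurl1b, which mark ligands for uptake, rose by 0.56 ± 0.10 and 0.90 ± 0.06 with neomycin. Between the drugs Mib1 differed by -0.90 ± 0.10 and Neurl1b by -1.12 ± 0.06. Mib2, of the same list, instead fell with both drugs, by 0.29 ± 0.08 with neomycin and 0.54 ± 0.08 with cisplatin. The endocytic adaptor Epn1 went from 35.5 ± 1.51 FPKM in PBS to 45.8 ± 1.54 FPKM in neomycin and 21.3 ± 0.58 FPKM in cisplatin. Of 8 tested cleavage genes 2 rose and 5 fell with cisplatin, while 6 rose and 0 fell with neomycin. Adam10, the protease of the first ligand-induced cut, was at 11.2 ± 1.10 FPKM in PBS, 14.3 ± 1.54 FPKM in neomycin and 6.74 ± 0.24 FPKM in cisplatin (log2 fold change of cisplatin against neomycin -0.98 ± 0.08, limma adjusted p = 3.4e-08). Furin, which cuts the receptor on its way to the surface, and the gamma-secretase subunit Aph1a differed by -0.84 ± 0.05 and -0.74 ± 0.05 between the drugs. Adam17 and the gamma-secretase subunit Psenen were the 2 cleavage genes that rose with cisplatin. Adam17 went from 54.7 ± 1.47 FPKM in PBS to 73.1 ± 0.95 FPKM, and Psenen from 65.5 ± 4.36 to 83.4 ± 3.89 FPKM.

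In the nucleus, Rbpj fell with both drugs, from 63.6 ± 2.43 FPKM in PBS to 36.2 ± 1.37 FPKM in neomycin (log2 fold change -0.80 ± 0.05, limma adjusted p = 1.2e-08) and 38.8 ± 1.66 FPKM in cisplatin (-0.70 ± 0.05, adjusted p = 8.8e-09). The Mastermind coactivator Maml3 went from 4.36 ± 0.11 FPKM in PBS to 0.785 ± 0.17 FPKM in cisplatin (-1.59 ± 0.07, adjusted p = 1.8e-10) and 3.68 ± 0.15 FPKM in neomycin. Maml2 fell by 0.51 ± 0.07 with cisplatin and rose by 0.35 ± 0.07 with neomycin. Maml1, the most abundant Mastermind gene in PBS, rose with cisplatin, from 7.90 ± 0.29 to 10.2 ± 0.73 FPKM (0.33 ± 0.06, limma adjusted p = 1.7e-04). Its neomycin change of -0.07 ± 0.06 was not called. With cisplatin Snw1, a cofactor also known from splicing, rose by 0.74 ± 0.05. Of the 7 tested genes of the nuclear complex 2 rose and 4 fell with cisplatin, and 2 rose and 2 fell with neomycin (2 and 4 with quantile normalization).

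The corepressors that hold RBPJ targets silent divided as 4 higher and 7 lower of 12 with cisplatin and as 4 higher and 2 lower with neomycin. The Groucho family gene Tle3 fell by 0.78 ± 0.05 and Ctbp2 by 0.60 ± 0.06 with cisplatin, and the histone deacetylase Hdac2 rose by 0.84 ± 0.04. No corepressor moved by 0.5 or more with neomycin. Among inhibitors and turnover genes, 5 of 11 rose and 3 fell with cisplatin, a balance that turned to 3 higher and 4 lower with TMM scaling and with quantile normalization. They included Numb, an inhibitor of the receptor, at 0.70 ± 0.06, and the ubiquitin ligases Nedd4 and Dtx4 at -0.76 ± 0.05 and -0.60 ± 0.08. With neomycin 6 rose and 2 fell (4 and 2 with TMM scaling, 3 and 1 with quantile normalization), and Dtx4 rose by 0.52 ± 0.08.

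Of the other HES genes, Hes5, an effector of Notch in cochlear supporting cells, was listed at 0 in every PBS and neomycin library and at most at 0.0177 FPKM in a cisplatin library. Hes6, which opposes Hes1 in other tissues, was the only tested gene of its list. It went from 4.49 ± 0.29 FPKM in PBS to 8.46 ± 0.60 FPKM in neomycin (log2 fold change 0.78 ± 0.08, limma adjusted p = 2.0e-06) and 3.09 ± 0.46 FPKM in cisplatin (-0.43 ± 0.08, adjusted p = 2.9e-04). Its direction was that of Notch1 and opposite to that of Hes1 with both drugs. Among all tested genes 25.2% were called in opposite directions with cisplatin and neomycin. Epn1, Adam10 and Dtx4 were among the pathway genes with the direction of Hes6.

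**Figure D4:**
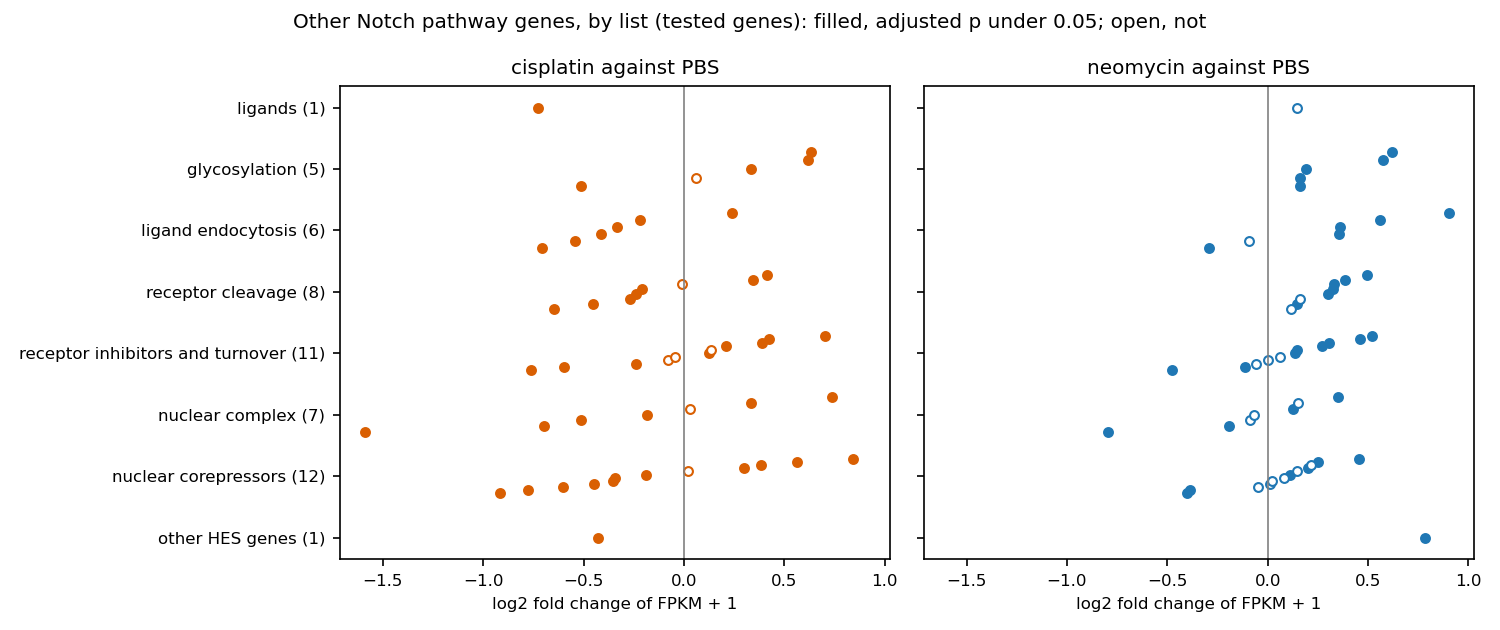
Log2 fold change of FPKM + 1 (x axis) of the 51 tested further Notch pathway genes, arranged by list (y axis, number of tested genes in brackets), for cisplatin against PBS (left) and neomycin against PBS (right). Filled points passed an adjusted p of 0.05. Most points of ligand endocytosis and receptor cleavage lie below 0 for cisplatin and above 0 for neomycin.

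Among the genes whose levels were most like those of Hes1, the member with the largest called change on log2(FPKM + 1) in cisplatin, were Drg1, a GTP-binding protein gene (Pearson r = 0.999), and Rhob, a small GTPase gene (0.999), by log2(FPKM + 1) over the 9 libraries among 8265 candidate genes. Rhob was at 73.4 ± 5.61 FPKM in PBS, 52.7 ± 4.04 FPKM in neomycin and 196 ± 3.21 FPKM in cisplatin. Closest to Jag1, the member with the largest called change on that scale in neomycin, were Bcat1, a branched-chain amino acid transaminase gene (0.996), the kinase gene Map2k1 (0.995) and the amino acid transporter gene Slc38a2 (0.991). These correlations follow the 3 group means, which many genes share, and are given as a description. On recovered reads, without the added 1 FPKM, the cisplatin change was 1.06 ± 0.10 for Lfng and 1.01 ± 0.06 for Hes1 (voom).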

How the data were processed

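RNA was sequenced from 9 HEI-OC1 libraries. Per the labels' protocols, RNA was purified with an RNeasy kit and SMARTER mRNA libraries were built. The deposited values are FPKM computed by the authors, 1 column per library, per the file headers. The sources used here name no aligner or counter and do not say whether counting used strand. The submitters' processing notes name mm10, while the organism label is rat and 18532 gene identifiers (94.5%) were found in the rat assembly GRCr8, so gene coordinates are given only for the RefSeq promoter sequences. Groups and replicate numbers came from the titles.

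Whole reads were worked out from the FPKM steps for all 19608 genes, within 0.001 of a read. Genes averaging 1 FPKM or more over the libraries (10532) were tested on log2(FPKM + 1) with limma 3.58.1 in R 4.3.3, with a mean per group, all 9 libraries and a mean-variance trend. P-values were adjusted by the Benjamini-Hochberg method over all tested genes, with a threshold of 0.05. From each further list, the named genes were drawn from the 4 largest called changes of at least 0.5 in each comparison, not all of which are printed. Dll1, Dll3, Dll4, Notch4, Rfng, Adam17, Psenen, Maml1 and Hes5 were named after their values were seen. The 3 genes most like a member were taken from tested genes with a group mean of 5 FPKM or more, leaving out provisional gene names. Some genes that these rules select are not reported here. The members and lists were chosen with earlier results of these data known. The limma fit and the read recovery were tested on simulated data. Same-numbered libraries did not all deviate together (correlations of -0.05 to 0.30 over 9 pairs), so the numbers were not used as a pairing. List genes not found in the table are not analysed here.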

Additional observations from a re-analysis of the deposited data

How the results depend on the processing

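The 7 tested members were refitted in each comparison with a pseudocount of 0.1, no filter, TMM factors, quantile normalization, array weights, the replicate block, each library left out, and voom on recovered reads (for genes with at least 10 reads, added after the data were seen). Of these values 322 kept their direction and their side of the threshold and 3 were the Hey1 calls given above. Some refits could not change a fold change, namely no filter, the replicate block and leaving out a library of the group not compared. There the direction was fixed in advance and only the p-values could move. The other 11 were changes near 0 that were not called and turned sign. Hey2 with cisplatin turned from -0.024 to 0.040 under quantile normalization, and lay between -0.084 and 0.047 with single libraries left out. Hey2 with neomycin turned from -0.040 to 0.048 with array weights, and lay between -0.143 and 0.057. Hey2 between the drugs turned from 0.017 to -0.019 with TMM factors and -0.064 with array weights, and lay between -0.081 and 0.119. Lfng with neomycin turned from 0.075 to -0.053 under quantile normalization, and lay between -0.0027 and 0.153. With the replicate block 5 of 7 members were called in each comparison, as without it. Leaving out single libraries gave 5 called members against PBS for either drug and 5 to 6 between the drugs. Over all genes it gave 7848 to 8268 calls for cisplatin, 6447 to 6851 for neomycin and 8272 to 8723 between the drugs, and the replicate block gave 8424, 7261 and 8746 against 8216, 6973 and 8598 without it. The 2 count-model tests planned for recovered reads were not run, because the deposited unit is FPKM. Without the filter 6, 7 and 6 of 10 members were called for cisplatin, neomycin and the contrast of the drugs, and with voom 6, 7 and 6 of 9. Depth limits Heyl and Notch3, with 3 and 54 reads over the 9 libraries.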
